A study of Mus musculus with 8 samples.

Results

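Intracisternal A-particle (IAP) elements are the endogenous retroviruses examined here, as they appear in RNA sequencing of mouse testes and of RNF17 immunoprecipitates. The members are all rows of the deposited transposon tables that are classed as LTR, ERVK and whose family name begins with IAP. There were 32 such rows among 1268 in each table, 1 sense and 1 antisense row for each of 16 families out of 634. Of the families, 10 are long terminal repeats (LTRs) and 6 are internal regions, namely IAP-d-int, IAPEy-int, IAPEY3-int, IAPEz-int, IAPLTR3-int and IAPLTR4_I. The choice used names only. Each row was counted once among uniquely mapped reads and once among multiply mapped reads.

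The 8 libraries form 4 groups of 2, all from C57BL/6 mice aged 6 weeks: the RNF17 immunoprecipitate (IP) of homozygous Rnf17 testes (hom IP), the IP of heterozygous Rnf17 testes (het IP), homozygous testis (hom testis) and heterozygous testis (het testis). The IPs used the RNF17 1774 antibody on testis lysate, and the testis libraries used no antibody. Libraries were primed with not-so-random primers, a set chosen to avoid ribosomal RNA. The heterozygotes also carry 1 altered Rnf17 allele, no wild-type group was used, and the labels describe neither the allele nor a control antibody. The labels do not state whether replicate libraries come from different animals. A p-value below therefore sets a difference against the spread of these libraries only, and that spread can be technical.

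IAP elements are mouse retrotransposons that copy themselves through RNA and are still able to insert. Their LTRs hold the promoter and the polyadenylation signal, and the internal region between them encodes the gag and pol proteins of the particle. In male germ cells they are silenced by DNA methylation, by repressive chromatin and by PIWI proteins loaded with piRNAs. In the ping-pong cycle, antisense piRNAs guide the cutting of sense transposon RNA and sense piRNAs guide the cutting of antisense RNA, so the strand of an IAP read carries information. RNF17 is a Tudor domain protein of germ cells, and the title of the series ties it to that cycle. Small RNAs were not analysed here.

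Read depth differed between libraries. Reads assigned to genes numbered 5661754 and 7344970 in hom IP, 9222913 and 5858753 in het IP, 7260047 and 50575649 in hom testis, and 6140624 and 19838802 in het testis. For every 100 genic reads, uniquely mapped transposon reads numbered 6.89 and 6.97 in hom IP, 14.6 and 11.8 in het IP, 18.8 and 8.01 in hom testis, and 19.3 and 6.30 in het testis, so both testis groups held 1 library with a large and 1 with a small transposon share. Multiply mapped transposon reads stood at 6.15 per 100 genic reads in het IP replicate 1 and at 1.49 in replicate 2, against 0.670 and 0.635 in hom IP. Rnf17 itself read 50.2 and 97.5 CPM (reads per 1000000 genic reads after TMM scaling) in hom testis, against 507 and 551 CPM in het testis, and 213 and 392 CPM in hom IP, against 1261 and 1187 CPM in het IP, so it was lower in every library labelled homozygous.

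Spermatid marker genes had lower summed levels in the homozygous testis. The 12 elongating spermatid markers, led by Odf2 and Tnp1, all had negative log2 fold changes and summed to 2132 and 2961 CPM in hom testis, against 8459 and 35495 CPM in het testis. In the IPs their sum was 1446 and 1642 CPM in hom IP, against 9051 and 8717 CPM in het IP. The 10 round spermatid markers, led by Hook1 and Spaca1, were also all below 0, with sums of 424 and 755 CPM in hom testis, against 1308 and 4770 CPM in het testis. Of the 11 spermatocyte markers, led by Ldhc and Sycp2, 9 were below 0, and their sums, 2228 and 5263 CPM in hom testis and 4924 and 5221 CPM in het testis, overlapped. All 8 tested spermatogonial markers, led by Kit and Uchl1, were above 0, at 268 and 227 CPM in hom testis and 151 and 124 CPM in het testis. Among somatic lists, 7 of 8 Sertoli markers, led by Clu and Wt1, and all 6 Leydig markers, led by Cyp17a1 and Hsd17b3, were above 0. Sertoli sums were 789 and 1002 CPM in hom testis, against 388 and 457 CPM in het testis, and Leydig sums were 577 and 761 CPM in hom testis, against 249.7 and 310.0 CPM in het testis. Within the Sertoli and Leydig lists, Amh was at 0 in het testis and Insl3 at 0 in all 4 groups. For peritubular myoid cells, led by Actg2 and Myh11, and for macrophages, led by Aif1 and Csf1r, 5 of 6 markers were above 0. Actg2 and Aif1, named also as the 1 member of each list below 0, hold most of the summed level in het testis: the sums were 241 and 135 CPM in hom testis, against 270.5 and 457 CPM in het testis, for myoid cells, and 91.0 and 64.2 CPM in hom testis, against 527 and 1949 CPM in het testis, for macrophages. No marker passed edgeR's quasi-likelihood test. An unadjusted p under 0.05 was reached by 11 elongating spermatid, 6 round spermatid and 2 Leydig markers, by 1 each of the spermatocyte, Sertoli, myoid and macrophage lists and by 0 spermatogonial markers. DESeq2 called 11 elongating spermatid, 5 round spermatid, 1 spermatocyte, 1 myoid and 1 macrophage marker lower and 1 Sertoli marker higher in hom testis. Fewer cells of a type and less RNA per cell cannot be told apart in bulk samples, and the part of these differences in the IAP values was not tested.

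IAP rows made up a small part of the transposon reads. Their share of uniquely mapped transposon reads was 0.563% and 0.584% in hom IP, 0.758% and 1.05% in het IP, 0.633% and 1.21% in hom testis, and 0.519% and 0.730% in het testis. Most uniquely mapped IAP reads came from internal rows: IAPLTR3-int held 28252 over the 8 libraries, IAPEz-int 21965 and IAPEY3-int 13823, while the LTR family with the most reads, IAPLTR2_Mm, held 7127. At the other end, IAPEY_LTR held 352 reads in all. CPM is not corrected for the length or copy number of a family, so it compares libraries and not families. Families also differed in how far their reads could be placed: IAPEY3_LTR had 0.178 multiply mapped reads for each uniquely mapped one, IAPLTR3-int 0.480, IAPEz-int 1.49, IAPEY3-int 1.62 and IAPLTR1_Mm 6.66. Near-identical copies share reads, and the way the authors divided reads between families or set their strand is not given in the sources used here, so the split between related families such as IAPLTR1_Mm and IAPLTR1a_Mm is uncertain.

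In the homozygous testis no IAP row passed a test against the heterozygous testis. None of the 32 rows passed edgeR's quasi-likelihood test at an adjusted p under 0.05 and none had an unadjusted p under 0.05. The background was the same, at 0.0% of 1070 transposon rows called in either direction, 20 of them with an unadjusted p under 0.05, and DESeq2 called none. The median log2 fold change, hom testis over het testis, was 0.0092 over the IAP rows and -0.28 over all transposon rows; the value for all rows was above 0 with both other scalings. Groups did not overlap for 3 IAP rows with higher values in hom testis (IAPEY3_LTR sense, IAPLTR3-int sense and IAPLTR4 antisense), against 2.8% of all rows, and for 2 with lower values (IAP-d-int antisense and IAPLTR2_Mm sense), against 15.2% of all rows.

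The 4 rows with the most reads spread unequally between libraries, yet their SEs are alike. Here and in the comparisons below, edgeR's test draws the spread of a row largely from all transposon rows tested. IAPEz-int antisense read 114 and 123 CPM in hom testis, against 116 and 18.1 CPM in het testis, a log2 fold change of 0.82 with a standard error (SE) of 0.88. The low value is het testis replicate 2, and the other 3 libraries lie close together. IAPLTR3-int sense read 104 and 113 CPM in hom testis, against 75.2 and 66.6 CPM in het testis (log2 fold change 0.61, SE 0.88), with no overlap between the groups. IAPLTR3-int antisense read 85.4 and 169.8 CPM in hom testis, against 103 and 155 CPM in het testis (log2 fold change -0.015, SE 0.88), and its sign turned under both other scalings. IAPEz-int sense read 116 and 104 CPM in hom testis, against 174.5 and 40.9 CPM in het testis (log2 fold change 0.034, SE 0.88), so the het testis libraries enclose both hom testis values. The adjusted p was 0.998 for each of these rows.

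Rows that are taken up again in the IPs had these testis levels. IAPEY3-int sense read 100.1 and 54.4 CPM in hom testis, against 75.4 and 30.3 CPM in het testis. IAPEY3-int antisense read 35.1 and 88.7 CPM in hom testis, against 35.6 and 42.4 CPM in het testis. IAPLTR2_Mm antisense read 91.6 and 37.4 CPM in hom testis, against 139 and 58.7 CPM in het testis. The genotypes overlapped in all 3 rows. IAP-d-int sense read 46.2 and 29.1 CPM in hom testis, against 69.9 and 24.0 CPM in het testis. IAPLTR3 antisense read 17.9 and 36.2 CPM in hom testis, against 23.1 and 37.6 CPM in het testis, and IAPLTR3 sense 9.23 and 17.2 CPM in hom testis, against 9.66 and 12.5 CPM in het testis. These rows overlapped too, as did the less abundant ones: IAPEy-int antisense at 5.98 and 7.66 CPM in hom testis, against 7.99 and 6.43 CPM in het testis, IAPEY3_LTR antisense at 5.68 and 16.5 CPM in hom testis, against 7.82 and 5.28 CPM in het testis, IAPLTR1a_Mm antisense at 7.30 and 3.18 CPM in hom testis, against 7.49 and 2.30 CPM in het testis, IAPLTR4_I sense at 18.3 and 6.71 CPM in hom testis, against 8.99 and 5.21 CPM in het testis, and IAPEY_LTR sense at 1.12 and 1.42 CPM in hom testis, against 0.832 and 2.17 CPM in het testis.

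Summed over all IAP rows, uniquely mapped reads stood at 875 and 915 CPM in hom testis, against 1023 and 618 CPM in het testis. Taken within replicate numbers, the ratio of hom testis to het testis was 0.856 for number 1 and 1.48 for number 2, and the numbers go with the transposon share of the libraries given above. A difference of the family as a whole was not detectable against this spread.

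**Figure D1:**
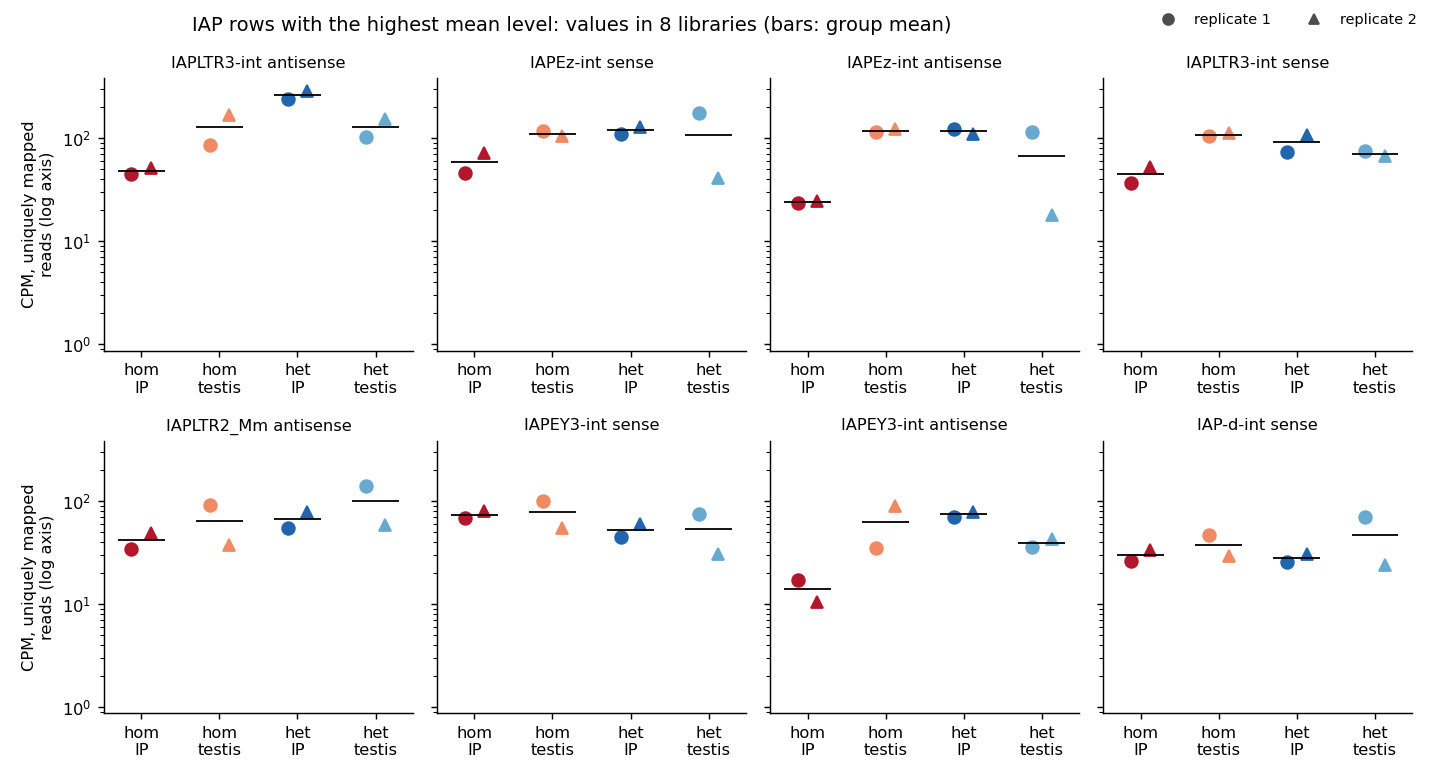
Level of the 8 IAP rows with the highest mean level of uniquely mapped reads in each of the 8 libraries, in CPM on a log axis, with 1 panel per row. Points are libraries (circle, replicate 1; triangle, replicate 2) and bars are group means; in the antisense panels of IAPLTR3-int, IAPEz-int and IAPEY3-int both hom IP libraries lie below both het IP libraries, while hom testis and het testis overlap.

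Multiply mapped reads gave the same count in the testis. Of 30 IAP rows tested, none passed edgeR's test and none had an unadjusted p under 0.05, against 0.0% of 748 transposon rows called, and DESeq2 called none. IAPEY3-int sense, the row with the highest mean level, read 353 and 157 CPM in hom testis, against 198 and 133 CPM in het testis (log2 fold change 0.62, SE 1.55). IAPEz-int sense read 251 and 184 CPM in hom testis, against 417 and 86.3 CPM in het testis (log2 fold change -0.21, SE 1.55; above 0 with plain genic totals and with TMM within the transposon table). IAPEz-int antisense read 134 and 133 CPM in hom testis, against 152 and 44.6 CPM in het testis (log2 fold change 0.44, SE 1.57). IAPLTR1_Mm antisense read 174 and 50.7 CPM in hom testis, against 321 and 35.2 CPM in het testis (log2 fold change -0.67, SE 1.57; above 0 with TMM within the transposon table). All 4 rows overlap between genotypes. Among the 30 rows, IAPLTR4_I sense alone had higher values without overlap in hom testis, against 0.936% of all rows, and 6 rows had lower values without overlap, all from LTR families, against 14.7% of all rows.

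Between the IPs, rows labelled IAP internal antisense were lower where Rnf17 is homozygous altered. With uniquely mapped reads, 18 of 30 tested IAP rows were lower in hom IP than in het IP and 1 was higher (edgeR's quasi-likelihood test, adjusted p under 0.05). Transposon rows at large moved the same way: 53.0% of 973 rows were called lower and 2.16% higher, or 55.2% in either direction, so the IAP share of 18 in 30 is near the background and is not a result about IAP. Of the rows called lower, IAPEy-int antisense and both strands of IAPLTR1a_Mm, IAPEY_LTR and IAPEY2_LTR held 0 to 9 reads in each hom IP library. They passed the filter on low counts through het IP, where they were higher. The median log2 fold change, hom IP over het IP, was -1.01 over IAP rows and -0.83 over all rows. In 22 IAP rows both hom IP libraries lay below both het IP libraries, against 73.6% of all rows, and in 2, IAPEY3-int sense and IAPLTR4_I sense, both lay above, against 6.78% of all rows. With TMM within the transposon table, a scaling that centres the transposon pool and puts the median of all rows at -0.11, the IAP split became 7 lower and 3 higher (IAPLTR4_I, IAPEY3-int and IAP-d-int sense), against 17% and 13.2% of all rows. Without hom IP replicate 1 edgeR called 10 IAP rows lower and 1 higher, against 40.2% and 1.47% of all rows, and without hom IP replicate 2 it called 10 lower and 0 higher, against 30.8% and 0.493%.

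Within the family the 4 kinds of row moved unequally. All 5 tested internal antisense rows were called lower in hom IP, with a median log2 fold change of -2.42. Among antisense rows, 56.1% of 494 over all transposons and 55.6% of 124 in other ERVK families were called lower. IAPEy-int antisense passed the filter on low counts through het IP, where it was higher, so its call lends no support. The same holds for the LTR rows of IAPLTR1a_Mm, IAPEY_LTR and IAPEY2_LTR counted below. Of the 6 internal sense rows 2 were lower and 1 higher, with a median of -0.27. The LTR rows lay between them, with 6 of 9 antisense rows lower (median -1.25) and 5 of 10 sense rows lower (median -0.97). Among sense rows the called share was 49.9% of 479 over all transposons and 49.6% of 123 in other ERVK families. With TMM within the transposon table the median of internal sense rows turned to 0.44. The median of LTR sense rows turned to 0.019 over 9 rows, without IAPEY_LTR sense, which fell under the filter on low counts there. Over the same 9 rows it was -0.71 with genic totals times TMM factors. Over all transposon rows the median was -0.90 for antisense and -0.71 for sense, and for ERVK families other than IAP it was -1.01 for antisense and -0.64 for sense. These medians describe the rows and were not tested against each other.

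IAPLTR3-int antisense, the row with the most reads, read 45.0 and 51.0 CPM in hom IP, against 239.5 and 288 CPM in het IP. The log2 fold change was -2.46 (SE 0.19, adjusted p = 9.95e-05), a level 5.49-fold lower in hom IP. IAPEz-int antisense read 23.3 and 24.3 CPM in hom IP, against 122 and 111 CPM in het IP, with a log2 fold change of -2.29 (SE 0.19, adjusted p = 9.95e-05). In both rows the gap between genotypes is many times the gap between replicates. IAPEY3-int antisense read 17.2 and 10.5 CPM in hom IP, against 69.7 and 78.5 CPM in het IP (log2 fold change -2.42, SE 0.26, adjusted p = 0.000232). IAPEy-int antisense read 0.945 and 1.33 CPM in hom IP, against 11.9 and 9.02 CPM in het IP (log2 fold change -3.18, SE 0.45, adjusted p = 0.000634), and its hom IP values rest on 5 and 8 reads. These 4 rows were called lower in all 9 alternatives that were run. IAP-d-int antisense, named to complete the count after its values were seen, read 10.96 and 8.33 CPM in hom IP, against 15.0 and 17.9 CPM in het IP (log2 fold change -0.76, SE 0.29, adjusted p = 0.0465), and was called in 2 of the 9 alternatives. The remaining internal antisense row, IAPLTR4_I, had 0 and 0 reads in hom IP, against 10 and 6 reads in het IP, and fell under the filter on low counts.

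The sense rows of the same internal regions gave smaller fold changes. IAPEz-int sense read 45.7 and 72.5 CPM in hom IP, against 109 and 129 CPM in het IP (log2 fold change -1.01, SE 0.24, adjusted p = 0.00690). IAPLTR3-int sense read 37.0 and 52.5 CPM in hom IP, against 73.3 and 108 CPM in het IP (log2 fold change -1.01, SE 0.25, adjusted p = 0.00834). With TMM within the transposon table both lost the call, at log2 fold changes of -0.29 and -0.29. IAPEY3-int sense ran the other way in both replicates, at 67.7 and 79.5 CPM in hom IP, against 44.8 and 60.3 CPM in het IP (log2 fold change 0.49, SE 0.21, adjusted p = 0.0725), and did not pass. IAP-d-int sense overlapped, at 25.9 and 33.7 CPM in hom IP, against 25.7 and 30.2 CPM in het IP (log2 fold change 0.097, SE 0.23, adjusted p = 0.734; -0.27 with plain genic totals). The 1 IAP row called higher in hom IP was IAPLTR4_I sense, singled out after its values were seen, at 9.07 and 13.8 CPM in hom IP, against 3.09 and 5.54 CPM in het IP (log2 fold change 1.45, SE 0.41, adjusted p = 0.0152). It was called in 7 of the 9 alternatives and positive in all of them.

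Among the LTR rows, both strands of IAPLTR3 were lower in hom IP. IAPLTR3 antisense read 19.7 and 19.0 CPM in hom IP, against 54.5 and 52.2 CPM in het IP (log2 fold change -1.47, SE 0.20, adjusted p = 0.000539). IAPLTR3 sense read 8.32 and 4.67 CPM in hom IP, against 24.6 and 29.4 CPM in het IP (log2 fold change -2.06, SE 0.32, adjusted p = 0.000886). The strands of this LTR family thus moved the same way, with no overlap on either strand. IAPLTR1a_Mm antisense read 0.945 and 1.00 CPM in hom IP, against 5.98 and 5.86 CPM in het IP (log2 fold change -2.58, SE 0.46, adjusted p = 0.00179). Its hom IP values rest on 5 and 6 reads. These 3 rows were called lower in all 9 alternatives. IAPEY3_LTR antisense read 2.84 and 2.67 CPM in hom IP, against 9.35 and 9.34 CPM in het IP (log2 fold change -1.76, SE 0.37, adjusted p = 0.00437), and was called in 8 of the 9. IAPEY_LTR sense read 0.378 and 0.333 CPM in hom IP, 2 reads in each library, against 2.62 and 1.90 CPM in het IP (log2 fold change -2.64, SE 0.61, adjusted p = 0.00612), and was called in 5 of the 8 alternatives in which it could be tested. IAPLTR2_Mm antisense, the LTR row with the most reads, read 34.2 and 48.5 CPM in hom IP, against 54.2 and 78.5 CPM in het IP (log2 fold change -0.67, SE 0.25, adjusted p = 0.0440; 0.044 with TMM within the transposon table). The other LTR rows called lower were both strands of IAPEY2_LTR, IAPEY_LTR antisense, IAPLTR1a_Mm sense and IAPLTR2_Mm sense. No tested row of IAPLTR1_Mm, IAPLTR2a, IAPLTR2b or IAPLTR4 passed, and IAPLTR4 antisense fell under the filter on low counts.

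**Figure D2:**
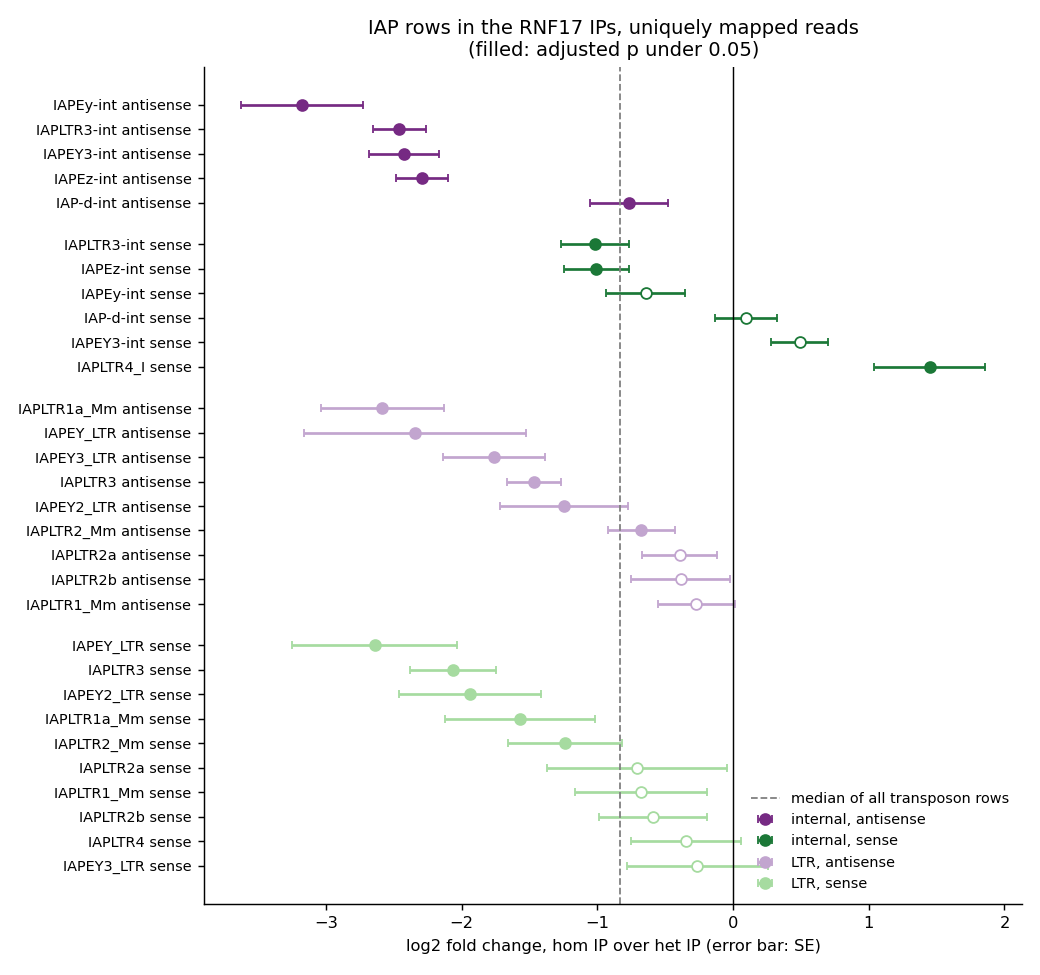
Log2 fold change of each of the 30 tested IAP rows, hom IP over het IP, uniquely mapped reads, grouped as internal antisense, internal sense, LTR antisense and LTR sense. Points are edgeR estimates, bars are their SE, filled points passed at an adjusted p under 0.05, and the dashed line at -0.83 is the median of all transposon rows; 4 internal antisense rows lie below -2 and IAPLTR4_I sense lies above 0. When scaled by TMM within the transposon table, 10 of the rows below 0, among them IAPLTR2_Mm antisense and no internal antisense row, move above 0, and with plain genic totals IAP-d-int sense moves below it.

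Summed levels put the strands side by side. Internal antisense rows together read 97.3 and 95.5 CPM in hom IP, against 459 and 506 CPM in het IP, and stood at 259.8 and 409.9 CPM in hom testis and at 287 and 256 CPM in het testis. The hom IP pair lies below all other libraries and the het IP pair above all others. The log2 ratio of hom IP to het IP was -2.32, and it was -1.61 with TMM within the transposon table and -2.67 with plain genic totals. Internal sense rows together read 194 and 262 CPM in hom IP, against 269 and 350.1 CPM in het IP, a log2 ratio of -0.44 that turned to 0.28 with TMM within the transposon table. LTR antisense rows summed to 89.2 and 107.7 CPM in hom IP, against 167 and 198 CPM in het IP, and overlapped with TMM within the transposon table. LTR sense rows summed to 34.6 and 33.5 CPM in hom IP, against 62.0 and 96.4 CPM in het IP, and lay apart under all 3 scalings.

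**Figure D3:**
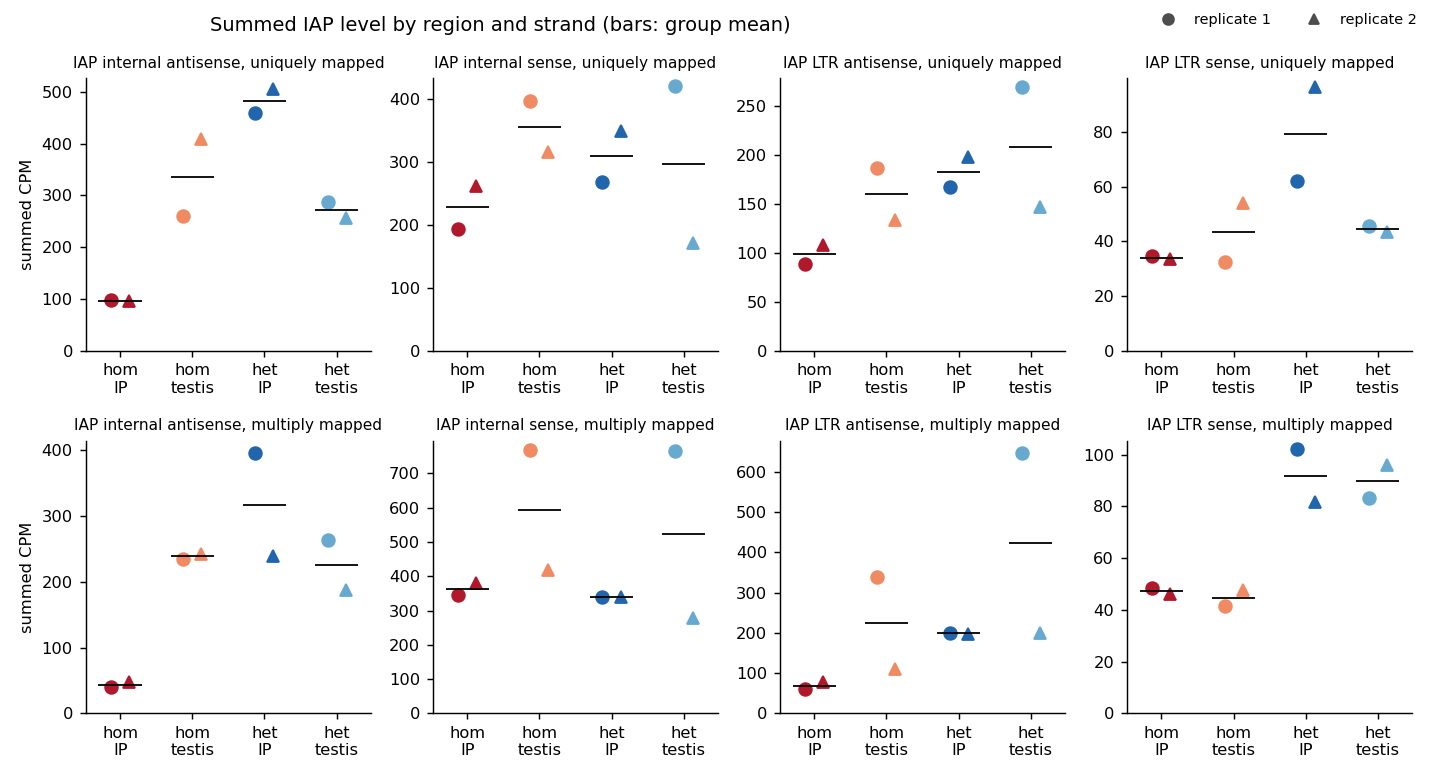
Summed level of IAP internal and LTR rows by strand in each library, in CPM on linear axes that start at 0 and differ between panels, for uniquely mapped reads (top) and multiply mapped reads (bottom). Points are libraries (circle, replicate 1; triangle, replicate 2) and bars are group means; for internal antisense the hom IP libraries lie lowest in both rows of panels, and for uniquely mapped reads they stay below het IP under all 3 scalings, while for multiply mapped reads the IP groups overlap with TMM within the transposon table.

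The strand share is computed within each library. Of uniquely mapped IAP internal reads, 33.4% (95% Wilson interval 31.1 to 35.8) and 26.7% (24.9 to 28.6) were antisense in hom IP, against 63.1% (62.0 to 64.1) and 59.1% (57.8 to 60.4) in het IP. In the testis the share was 39.6% and 56.4% in hom testis, against 40.5% and 59.8% in het testis. The IP groups thus lay apart, whereas the testis groups overlapped and split by replicate number. The intervals cover counting error only, and 2 libraries against 2 cannot pass an exact permutation test at 0.05, so the difference carries no test.

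The same order held within each of the 3 internal families with the most reads. The antisense share of IAPEY3-int was 20.3% and 11.7% in hom IP, against 60.9% and 56.6% in het IP. For IAPEz-int it was 33.7% and 25.1% in hom IP, against 52.8% and 46.2% in het IP. For IAPLTR3-int it was 54.8% and 49.3% in hom IP, against 76.6% and 72.7% in het IP. Pooled IAP LTR reads did not show this order and were mostly antisense in every library. They stood at 72.1% and 76.3% in hom IP, against 72.9% and 67.3% in het IP. In the testis they stood at 85.2% and 71.2% in hom testis, against 85.6% and 77.2% in het testis. Single LTR families differed: IAPEY3_LTR, IAPLTR1a_Mm and IAPLTR4 lay lower in hom IP without overlap. IAPLTR2_Mm, IAPLTR2b, IAPLTR3 and IAPEY2_LTR lay higher without overlap, and the other LTR families overlapped. IAPLTR4 was mostly sense in every library. ERVK families other than IAP lay between 41.1% and 42.3% in all 4 IP libraries.

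**Figure D4:**
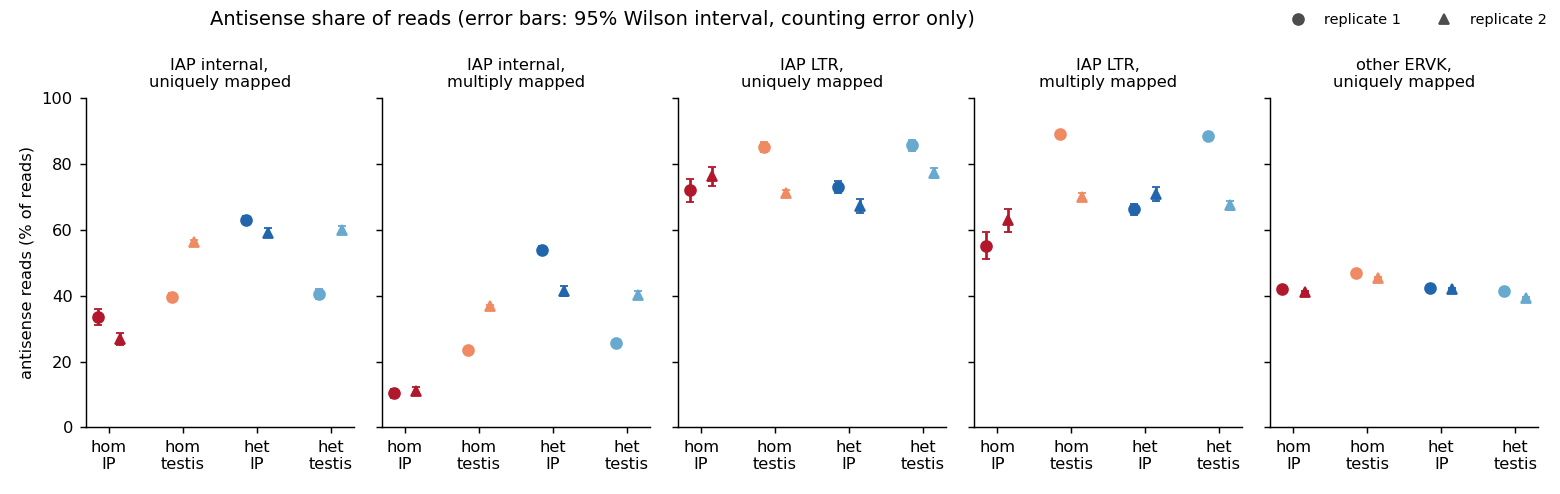
Share of reads in antisense orientation, in percent, for IAP internal and IAP LTR families with uniquely and with multiply mapped reads, and for the other ERVK families with uniquely mapped reads. Points are libraries (circle, replicate 1; triangle, replicate 2) with 95% Wilson intervals for counting error; in both IAP internal panels the hom IP libraries lie below the het IP libraries, in the other ERVK panel all 4 IP libraries lie between 41.1% and 42.3%.

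Multiply mapped reads shared part of this strand pattern, again without a test of the shares. The antisense share of IAP internal reads was 10.3% and 11.1% in hom IP, against 53.9% and 41.4% in het IP, and 23.4% and 36.8% in hom testis, against 25.6% and 40.2% in het testis. For IAPEz-int it was 13.6% and 15.8% in hom IP, against 60.3% and 49.1% in het IP. For IAPEY3-int it was 2.18% and 2.37% in hom IP, against 32.7% and 17.1% in het IP. IAPLTR3-int overlapped here, at 56.6% and 56.9% in hom IP, against 68.7% and 55.4% in het IP. LTR reads of this table, at 55.2% and 63.0% in hom IP, against 66.2% and 70.8% in het IP, lay lower in hom IP. Other ERVK families also differed between libraries in this table, at 13.4% and 11.8% in hom IP, against 31.4% and 13.6% in het IP, where het IP replicate 1, the library with the large multiply mapped share, stands apart. Over all transposon rows of this table the antisense share was 21.5% and 20.8% in hom IP, against 47.9% and 28.6% in het IP, so a lower share in both hom IP libraries is not particular to IAP there. With uniquely mapped reads the share over all transposon rows overlapped, at 43.9% and 40.3% in hom IP, against 34.96% and 44.7% in het IP.

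None of the 24 tested multiply mapped IAP rows was called between the IPs by edgeR. An unadjusted p under 0.05 was reached by 3 of them, against 120 of all 404 transposon rows. The background of calls was 0.0% of the 404 rows in either direction. DESeq2 called 8 IAP rows lower, against 59.2% of all rows, and 2 higher, IAPEY3-int sense and IAPLTR4_I sense, against 0.743%. IAPEz-int antisense read 14.2 and 17.5 CPM in hom IP, against 191 and 149 CPM in het IP (log2 fold change -3.42, SE 0.77, edgeR adjusted p = 0.156). IAPEY3-int sense read 195 and 206 CPM in hom IP, against 95.1 and 97.3 CPM in het IP (log2 fold change 1.06, SE 0.56, edgeR adjusted p = 0.185). Neither row overlapped between groups. IAPEz-int sense read 90.3 and 93.3 CPM in hom IP, against 126 and 154 CPM in het IP (log2 fold change -0.61, SE 0.63, edgeR adjusted p = 0.425; 0.92 with TMM within the transposon table). IAPLTR1_Mm antisense read 22.9 and 37.7 CPM in hom IP, against 58.2 and 90.2 CPM in het IP (log2 fold change -1.29, SE 0.90, edgeR adjusted p = 0.270; 0.13 with TMM within the transposon table). Counted without a test, 17 IAP rows lay lower without overlap in hom IP, against 75.7% of all rows, and 2, IAPEY3-int sense and IAPLTR4_I sense, lay higher, against 1.49% of all rows. Without het IP replicate 1, edgeR called 8 IAP rows lower, against 16.3% of all rows, and 1 higher, against 0.248%. Without het IP replicate 2 it called 17 of 31 lower, against 90.4% of all rows, and 2 higher, against 0.454%.

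Other rows of this table that hold many reads are given by value. IAPLTR2_Mm antisense read 22.7 and 27.7 CPM in hom IP, 82.5 and 76.8 CPM in het IP, 89.5 and 41.1 CPM in hom testis, and 216 and 117 CPM in het testis. IAPLTR3-int antisense read 19.5 and 24.0 CPM in hom IP, 139 and 66.3 CPM in het IP, 37.9 and 66.7 CPM in hom testis, and 36.8 and 109 CPM in het testis. In both rows the hom IP libraries are the lowest of the 8. Of the rows with few reads, both strands of IAPEY2_LTR and IAPLTR4_I antisense had 0 reads in both hom IP libraries, and in het IP their levels reached 6.73 CPM at most.

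Each IP was next set against the testis libraries of its own genotype. The 2 comparisons below and the comparison of the IPs share libraries, so they are not independent of one another. In the heterozygotes no IAP row passed. Of 31 rows tested, edgeR called 0, against 0.0972% of 1029 rows called higher and 0.0972% called lower, and DESeq2 called 0. An unadjusted p under 0.05 was reached by 1 IAP row, against 79 of the 1029 rows. The median log2 fold change, het IP over het testis, was 0.36 over IAP rows and -0.34 over all rows. IAPLTR3-int antisense read 239.5 and 288 CPM in het IP, against 103 and 155 CPM in het testis (log2 fold change 1.03, SE 0.75, adjusted p = 0.694), with no overlap between the groups. IAPEz-int antisense, at 122 and 111 CPM in het IP, against 116 and 18.1 CPM in het testis, lay apart only from het testis replicate 2 (log2 fold change 0.80, SE 0.75, adjusted p = 0.803). IAPEz-int sense read 109 and 129 CPM in het IP, against 174.5 and 40.9 CPM in het testis (log2 fold change 0.15, SE 0.74, adjusted p = 0.963). IAPLTR3-int sense read 73.3 and 108 CPM in het IP, against 75.2 and 66.6 CPM in het testis (log2 fold change 0.36, SE 0.74, adjusted p = 0.936). Groups did not overlap for 11 rows with higher values in het IP, against 14.9% of all rows, and for 2 with lower values (IAP-d-int antisense and IAPLTR2a antisense), against 18.0%. With het testis replicate 1 left out edgeR called 4 rows higher and 1 lower, against 14.4% and 3.57% of all rows, and with replicate 2 left out it called 4 higher and 3 lower, against 4.63% and 40.8%.

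In the homozygotes several IAP antisense rows were lower in the IP than in the testis. Of 29 rows tested, 7 were lower in hom IP than in hom testis and 0 were higher, against 24.2% of 997 transposon rows called lower and 1.5% called higher, so the share called is at the background. Both hom IP libraries lay below both hom testis libraries in 15 IAP rows, against 60.3% of all rows, and above them in 0, against 6.32%. With either hom IP library left out edgeR kept no IAP call, and it lost nearly all calls over all transposon rows too. With hom testis replicate 2 left out it called 11 lower, against 52.9% of all rows. Of the 7 rows 6 are antisense and 5 internal, while 4 of the 5 tested internal antisense rows were called. Over all transposons 38.2% of 513 antisense rows and 9.3% of 484 sense rows were called lower, and in ERVK families other than IAP 31.7% of 126 antisense rows and 7.32% of 123 sense rows were, so the lean to antisense is not a result about IAP. IAPEz-int antisense read 23.3 and 24.3 CPM in hom IP, against 114 and 123 CPM in hom testis (log2 fold change -2.31, SE 0.48, adjusted p = 6.77e-05). IAPEY3-int antisense read 17.2 and 10.5 CPM in hom IP, against 35.1 and 88.7 CPM in hom testis (log2 fold change -2.17, SE 0.49, adjusted p = 0.000243). IAPEy-int antisense read 0.945 and 1.33 CPM in hom IP, against 5.98 and 7.66 CPM in hom testis (log2 fold change -2.57, SE 0.72, adjusted p = 0.00334). For these rows both hom IP libraries lie below both hom testis libraries. The hom testis libraries of IAPEY3-int antisense differ widely from each other, and the lower one is the nearer to hom IP. IAPLTR3-int was lower on both strands: antisense at 45.0 and 51.0 CPM in hom IP, against 85.4 and 169.8 CPM in hom testis (log2 fold change -1.41, SE 0.46, adjusted p = 0.0146), and sense at 37.0 and 52.5 CPM in hom IP, against 104 and 113 CPM in hom testis (log2 fold change -1.28, SE 0.46, adjusted p = 0.0284). Both LTR rows called were antisense. IAPEY3_LTR antisense read 2.84 and 2.67 CPM in hom IP, against 5.68 and 16.5 CPM in hom testis (log2 fold change -2.03, SE 0.62, adjusted p = 0.00744). IAPLTR1a_Mm antisense read 0.945 and 1.00 CPM in hom IP, against 7.30 and 3.18 CPM in hom testis (log2 fold change -2.39, SE 0.75, adjusted p = 0.0108). The hom IP values of IAPEy-int antisense and IAPLTR1a_Mm antisense rest on the few reads given above. Both rows passed the filter on low counts through hom testis, where they were higher. Their calls, counted among the 7, therefore lend no support.

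Other rows with many reads did not pass in the homozygotes. IAPEz-int sense had a log2 fold change of -0.90 (SE 0.46, adjusted p = 0.130), with values of 45.7 and 72.5 CPM in hom IP, against 116 and 104 CPM in hom testis. IAPEY3-int sense read 67.7 and 79.5 CPM in hom IP, against 100.1 and 54.4 CPM in hom testis (log2 fold change -0.068, SE 0.46, adjusted p = 0.920). IAPLTR2_Mm antisense read 34.2 and 48.5 CPM in hom IP, against 91.6 and 37.4 CPM in hom testis (log2 fold change -0.64, SE 0.46, adjusted p = 0.292). IAP-d-int sense read 25.9 and 33.7 CPM in hom IP, against 46.2 and 29.1 CPM in hom testis (log2 fold change -0.33, SE 0.46, adjusted p = 0.607). The last 3 turned above 0 with TMM within the transposon table. That scaling left 2 calls, IAPEz-int antisense and IAPEy-int antisense, against 9.39% of all rows called lower. 

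With multiply mapped reads, no IAP row was called in the heterozygotes (0 of 29, 0 at an unadjusted p under 0.05, 0 by DESeq2; background 0.0% of 739 rows) and 1 of 26 was called in the homozygotes, against 6.58% of 441 rows called lower. That row was IAPEz-int antisense, at 14.2 and 17.5 CPM in hom IP, against 134 and 133 CPM in hom testis (log2 fold change -3.07, SE 0.84, adjusted p = 0.0412). The call was lost with TMM within the transposon table and with either hom IP library left out, while DESeq2 called 5 rows lower, against 31.3% of all rows. Without hom testis replicate 1 edgeR called 5 IAP rows lower and 1 higher, against 10.5% and 0.98% of all rows, and without hom testis replicate 2 it called 16 lower and 2 higher, against 78.5% and 0.759%. Groups did not overlap for 14 rows with lower values in hom IP, against 64.2% of all rows, and for 2 with higher values, IAPLTR1_Mm sense and IAPLTR4_I sense, against 2.49%. In the heterozygotes 4 rows had lower values without overlap in het IP, against 4.06%, and 1, IAPLTR4_I sense, had higher values, against 3.38%. IAPEz-int antisense read 191 and 149 CPM in het IP, against 152 and 44.6 CPM in het testis (log2 fold change 0.79, SE 1.71, adjusted p = 1.00). IAPEY3-int sense, the row with the highest mean level, had log2 fold changes of -0.35 (SE 0.66) for hom IP over hom testis and -0.78 (SE 1.71) for het IP over het testis, and the hom value turned to 1.29 with TMM within the transposon table. IAPEz-int sense had -1.24 (SE 0.69) for hom IP over hom testis and -0.85 (SE 1.68) for het IP over het testis, and IAPLTR1_Mm antisense had -1.89 (SE 0.86) and -1.26 (SE 1.73) in the same order. Both IAPEz-int sense values and the heterozygous IAPLTR1_Mm value were above 0 with TMM within the transposon table. IAPLTR2_Mm antisense and IAPLTR3-int antisense, both lower without overlap in hom IP than in hom testis, had log2 fold changes of -1.37 (SE 0.89, adjusted p = 0.257; 0.25 with TMM within the transposon table) and -1.27 (SE 0.92, adjusted p = 0.303).

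**Figure D5:**
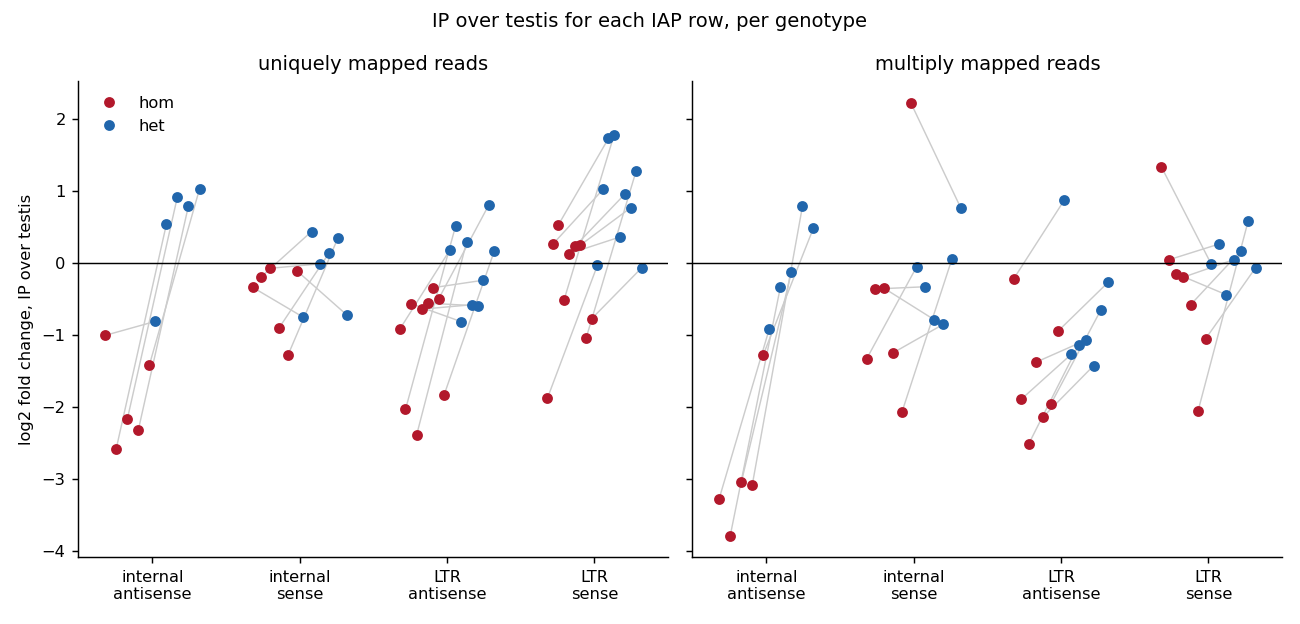
Log2 fold change of IP over testis for each tested IAP row, hom at the left and het at the right of each kind of row, with a line joining the values of 1 row, for uniquely mapped reads (left) and multiply mapped reads (right). All tested internal antisense rows lie below 0 in hom, and with uniquely mapped reads 4 of 5 lie above 0 in het; the genotypes share no library here, and no joined pair passed edgeR's test of its difference, while DESeq2 called 3 internal antisense rows of uniquely mapped reads.

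The difference between genotypes in the ratio of IP to testis was tested on all 8 libraries. No IAP row of 31 passed with uniquely mapped reads, against 0.0944% of 1059 transposon rows called lower and 0.0% called higher. Among the IAP rows 8 had an unadjusted p under 0.05, against 100 of the 1059 rows. For IAPEz-int antisense the log2 difference, hom minus het, was -3.12 (SE 0.94, edgeR adjusted p = 0.219). For IAPLTR3-int antisense it was -2.44 (SE 0.76, edgeR adjusted p = 0.219). The sense rows of both families had -1.04 (SE 0.86, edgeR adjusted p = 0.738) for IAPEz-int and -1.63 (SE 0.71, edgeR adjusted p = 0.472) for IAPLTR3-int. All 5 internal antisense rows were below 0 (IAP-d-int antisense was above 0 with TMM within the transposon table), with a median of -3.09, against a median of -0.54 over all transposon rows. DESeq2 called 3 rows lower, all internal antisense (IAPEy-int, IAPEY3-int and IAPLTR3-int), against 1.61% of all rows. Plain genic totals gave 2 lower calls, IAPEY3-int antisense and IAPEz-int antisense, against 1.23% of all rows. Without het testis replicate 1 edgeR called 12 rows lower, against 28.4% of all rows, and without het testis replicate 2 it called 5, against 3.18%. With multiply mapped reads 0 of 30 IAP rows passed, against 0.0% of 754 transposon rows called. Among the IAP rows 1 had an unadjusted p under 0.05, against 29 of the 754 rows. For IAPEz-int antisense the difference was -3.86 (SE 1.43) at an edgeR adjusted p of 0.439. It was -0.40 (SE 1.39) for IAPEz-int sense, -0.63 (SE 1.68) for IAPLTR1_Mm antisense and 0.44 (SE 1.27; -0.44 with plain genic totals) for IAPEY3-int sense.

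A list of genes tied to transposon silencing was examined in the testis. It includes Rnf17 itself, and whether its members silence IAP elements here was not tested. All 50 genes of the list, which holds piRNA pathway proteins, DNA methyltransferases and repressors acting through histone marks, were in the table and tested. None passed edgeR's quasi-likelihood test, 3 had an unadjusted p under 0.05 (Rnf17, Gtsf1 and Dnmt3l), and the background was 0.0% of 14170 genes. By DESeq2 1 member was called, Rnf17, with a log2 fold change of -2.84 (edgeR SE 0.61, edgeR adjusted p = 0.135, DESeq2 adjusted p = 0.000551), against 4.75% of genes called lower and 0.162% called higher. The median log2 fold change of the list was 0.041, against 0.038 over all genes.

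Of the list members with the highest level, those of the piRNA pathway overlapped between genotypes or differed in either direction. Ddx4, an RNA helicase of the germ granules, averaged 1006 ± 624 CPM in hom testis and 1309 ± 192 CPM in het testis (SD, n = 2 each). Mael, a germ granule protein needed for transposon silencing, averaged 453 ± 12.9 CPM in hom testis and 796 ± 123 CPM in het testis. Tdrd1, a Tudor domain scaffold of PIWI proteins, averaged 468 ± 156 CPM in hom testis and 282 ± 45.0 CPM in het testis. Mael was lower and Tdrd1 higher without overlap, and neither passed. Trim24, a transcription cofactor, averaged 357 ± 208 CPM in hom testis and 449 ± 175 CPM in het testis. Mphosph8 and Fam208a (listed as D14Abb1e), subunits of the HUSH complex that silences retroelements, averaged 258 ± 52.6 and 241 ± 12.1 CPM in hom testis, against 404 ± 172 and 399 ± 223 CPM in het testis.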

How the data were processed

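Total RNA was sequenced from 8 libraries, 4 of testis and 4 of RNF17 immunoprecipitate. The authors deposited whole-number read counts per gene and per transposon family and strand, in 1 table for uniquely and 1 for multiply mapped transposon reads; 12 columns are repeated between tables and hold identical values. The submitters' processing notes name STAR, DESeq and mm9; their versions, the strand setting and the handling of multiply mapped reads are not stated there. No coordinates or sequences were used.

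Libraries were scaled by genic reads times TMM factors computed once over all 8 libraries. All transposon rows of a table were tested together with edgeR 4.0.16 in R 4.3.3 (quasi-likelihood test, filterByExpr, Benjamini-Hochberg adjustment, threshold 0.05); genes were tested likewise. Comparisons of 2 groups used only the 4 libraries concerned, and the difference between genotypes on all 8. Wilson intervals and summaries used Python 3.11.15. Scripts were tested on simulated counts with a fixed spread not taken from these libraries, so power at the spread of these data was not tested. Alternatives were plain genic totals, TMM within the transposon table, DESeq2 1.42.0, no filter, a replicate block and leaving out each library, where a lone library is assumed to vary like the other group.

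Values are given for the 8 (unique) or 6 (multiple) rows with the highest mean CPM and for called rows, at most 10 per comparison; fold changes are given for 4 of these where nothing was called. Of the silencing genes, Rnf17, the 6 with the highest level and any called were named, and of each marker list the 2 with the highest level. Rows named to complete a count of 5 or fewer were picked after their values were seen. Piwil1 is in both the silencing and the spermatocyte list, Rhox5 was not matched, Emr1 is an older name of Adgre1, and Fam208a was matched as D14Abb1e. The members, lists and tests were chosen with earlier results of these data known. The authors' deposited comparison table was not used.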

Additional observations from a re-analysis of the deposited data

Results flagged for a closer look

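In 5 of the 31 IAP rows of uniquely mapped reads that passed the filter on low counts, both hom IP libraries lay below both hom testis libraries, while both het IP libraries lay above both het testis libraries. The same pattern was found in 69 of 1059 transposon rows, or 6.52%. IAPLTR4_I antisense, under the filter, had the pattern too. The log2 difference in IP over testis, hom minus het, was -3.11 for IAPEy-int antisense, -3.09 for IAPEY3-int antisense, -2.54 for IAPEY3_LTR antisense, -2.44 for IAPLTR3-int antisense and -2.32 for IAPLTR3 sense. The edgeR test of that difference gave adjusted p-values between 0.208 and 0.287, so none passed. IAPEy-int antisense, IAPEY3-int antisense and IAPLTR3-int antisense passed with DESeq2.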

How the results depend on the processing

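Of the values that were recomputed for single rows, 504 kept their direction and side of the threshold, 45 lost it, 42 gained it and 41 changed sign; of the counts and summed levels, 115 stayed close to the value in the text and 39 moved. Plain genic totals turned IAPLTR3-int antisense in the testis to 0.45, IAP-d-int sense between IPs to -0.27, IAPEz-int sense in the testis (multiply mapped) to 0.18 and the difference for IAPEY3-int sense (multiply mapped) to -0.44, and gave 2 calls for the unique difference between genotypes. TMM within the transposon table turned, with unique reads, IAPLTR3-int antisense in the testis to 0.13, IAPLTR2_Mm antisense between IPs to 0.044, and for hom IP over hom testis IAPLTR2_Mm antisense to 0.14, IAPEY3-int sense to 0.66 and IAP-d-int sense to 0.38. With multiply mapped reads it turned IAPEz-int sense to 1.05 and IAPLTR1_Mm antisense to 0.30 in the testis, to 0.92 and 0.13 between IPs, and to 0.28 and 0.12 for het IP over het testis. For hom IP over hom testis it turned IAPEY3-int sense to 1.29, IAPEz-int sense to 0.15 and IAPLTR2_Mm antisense to 0.25. It left 10 unique calls between IPs and 2 for hom IP over hom testis, and 1 and 0 with multiply mapped reads. The log2 ratio of summed IAP reads between IPs was -1.56 with genic totals and -0.49 with TMM within the table (unique), and -1.22 and 0.89 (multiply mapped). For hom IP over hom testis it was -1.44 and -0.34 (unique), and 0.42 with TMM within the table (multiply mapped). DESeq2 gave 3 calls for the unique difference, 10 and 5 for multiply mapped reads between IPs and for hom IP over hom testis, and 1 silencing gene, and without a filter the counts were 1 IAP row between IPs (multiply mapped) and 1 silencing gene. The cause of these shifts was not tested.

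Replicate numbers are shared between groups, but 2 pairs do not establish that they pair the libraries. Deviations of same-numbered libraries correlated across rows at 0.4875 and 0.513 in the testis, at 0.2009 for multiply mapped het IP and het testis and between -0.07156 and 0.06002 elsewhere. The replicate block gave 2 unique calls for the difference between genotypes (IAPEz-int antisense at -3.34, edgeR adjusted p = 0.00919, and IAPEY3-int antisense at -3.00, edgeR adjusted p = 0.0183, against 1.89% of all rows called lower), 1 between IPs and 0 for hom IP over hom testis with multiply mapped reads, 1 silencing gene, and 0.18 for IAPEz-int sense in the testis (multiply mapped).

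With 1 library left out, IAP calls ranged from 10 to 15 between IPs, from 0 to 7 for het IP over het testis, from 0 to 11 for hom IP over hom testis and from 0 to 12 for the difference (unique), and from 0 to 19 between IPs and 0 to 18 for hom IP over hom testis (multiply mapped); silencing genes ranged from 0 to 1. In each of these transposon comparisons the share called over all transposon rows also varied with the library left out. The ranges of IAP calls are therefore not a result about IAP. Rows that changed sign ranged, in the testis, from -0.59 to 0.40 (IAPLTR3-int antisense, unique), -0.66 to 1.43 (IAPEz-int sense, unique), -0.079 to 1.09 (IAPEY3-int sense), -0.94 to 1.33 (IAPEz-int sense), -0.19 to 1.58 (IAPEz-int antisense) and -1.81 to 1.67 (IAPLTR1_Mm antisense), the last 4 multiply mapped. Between IPs IAP-d-int sense ranged from -0.11 to 0.27. For het IP over het testis IAPEz-int sense ranged from -0.55 to 1.54 (unique) and -1.58 to 0.70, and IAPLTR1_Mm antisense from -2.11 to 1.07. For hom IP over hom testis IAPLTR2_Mm antisense ranged from -1.14 to 0.15, IAPEY3-int sense from -0.44 to 0.44 (unique) and -0.82 to 0.35, and IAP-d-int sense from -0.63 to 0.037. The multiply mapped difference ranged from -0.034 to 1.14 for IAPEY3-int sense, -1.94 to 0.33 for IAPEz-int sense and -2.96 to 0.52 for IAPLTR1_Mm antisense. Depth limits the rows with few reads: a count of 0 allows up to 3 reads.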
